A study of Homo sapiens with 3 samples.

Results

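The distal short arm of chromosome 1, band 1p36 and the sequence next to it, was described through the peaks that chromatin immunoprecipitation and sequencing (ChIP-seq) placed there. Its members are the peaks on chromosome 1 with a midpoint from 0 up to 30 Mb (hg19), without the block from 16 to 17.5 Mb, and there were 1106 of them among 19529 peaks in all. Of these, 778 came from the codanin-1 list of 14365 peaks and 328 from the GATA1 list of 5164 peaks. The cells were K562, a human erythroleukaemia line grown in standard medium with no treatment, and all groups share that line. One library was immunoprecipitated with the antibody Cod1, raised against residues 123 to 142 near the amino terminus of codanin-1, and 1 library with the antibody N6 against GATA1. A peak list for the rabbit IgG library was not analysed here. Each antibody had 1 library, so no value has a replicate error, and every p-value describes these 2 lists only.

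Codanin-1 is encoded by CDAN1, in which mutations cause congenital dyserythropoietic anaemia type I, and it binds ASF1, a chaperone that carries histones H3 and H4. GATA1 is a zinc finger transcription factor that recognises GATA sequences and directs the expression of erythroid and megakaryocytic genes. The outer part of the short arm of chromosome 1 is known as a gene-dense, GC-rich stretch of the genome. It holds, among many others, RHD and RHCE, which encode the Rh blood group antigens of red cells. No genome or annotation of the files' build was used, so the peaks were not matched to genes, and the gene density in the name of the band was not checked against the files.

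Both lists were denser, on average, in the distal 30 Mb than in the rest of the arm, from 30 to 120 Mb, and the GATA1 list more so. Codanin-1 had 27.3 peaks per Mb in the distal arm and 7.98 per Mb in the rest of the arm (718 peaks), a ratio of 3.42 (95% exact interval 3.09 to 3.79; exact binomial test on the 2 lengths, two-sided, adjusted p = 1.2e-118). GATA1 had 11.5 peaks per Mb in the distal arm and 1.36 per Mb in the rest of the arm (122 peaks), a ratio of 8.49 (6.88 to 10.5; exact binomial test, adjusted p = 1.0e-104). The rest of the arm was uneven. From 30 to 45 Mb, its 5 Mb bins held 23.6, 23 and 20.2 codanin-1 peaks per Mb. GATA1 stood at 5.4, 4 and 3.8 per Mb there. Distal bins from 10 Mb inward ranged from 23.6 to 32 for codanin-1 and from 3.71 to 6 for GATA1. From 60 to 105 Mb no bin exceeded 2.4 for codanin-1 and 0.4 for GATA1. Both ratios are thus averages over uneven stretches, and a change in density at 30 Mb was not tested. The distal arm held 5.42% of the codanin-1 list and 6.35% of the GATA1 list, and the rest of the arm 5.0% and 2.36%. There were 2.37 codanin-1 peaks per GATA1 peak in the distal arm, against 5.89 in the rest of the arm and 2.78 over the whole lists. The odds of codanin-1 to GATA1 peaks were 0.40 times those of the rest of the arm (95% exact interval 0.317 to 0.511; two-sided Fisher's exact test, adjusted p = 3.9e-15). All adjusted p-values over regions are Benjamini-Hochberg values over 10 comparisons. Set against the autosomes outside the distal arm and the crowded windows in place of the rest of the arm, the odds ratio was 0.694 (adjusted p = 4.6e-07, Fisher's exact test). Neighbouring peaks are not independent, copy number was not measured, and assembly gaps were not subtracted from the lengths.

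The ratio of the lists changed along the distal arm, and the change lay in the GATA1 list. From the end of the chromosome inward, consecutive bins of 5 Mb held 157, 136, 118, 112, 122 and 133 codanin-1 peaks. The same bins held 174, 52, 30, 13, 29 and 30 GATA1 peaks. In bins of this size, outside the left-out block, codanin-1 was spread almost evenly, although its 1 Mb windows ran from 14 to 46 peaks. More GATA1 peaks, by contrast, lay in the outermost bin than in the following 5 bins together. The left-out block, with 86 codanin-1 and 50 GATA1 peaks, lies in the bin from 15 to 20 Mb. With it counted, the following 5 bins together would hold more GATA1 peaks than the outermost bin. The number of codanin-1 peaks per GATA1 peak was 0.902 in the outermost bin, 2.62 from 5 to 10 Mb, 3.93 from 10 to 15 Mb, 8.62 from 15 to 20 Mb (where the left-out block shortens the bin to 3.5 Mb), 4.21 from 20 to 25 Mb and 4.43 from 25 to 30 Mb. The last of these values was close to the 4.37 of the next bin, from 30 to 35 Mb. The outermost 5 Mb thus held 20.2% of the distal codanin-1 peaks and 53.0% of the distal GATA1 peaks. The median midpoint of the distal peaks was 13.3 Mb for codanin-1 and 3.57 Mb for GATA1.

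Each 5 Mb bin from 0 to 120 Mb was tested against the other bins of the arm, and 5 of 24 bins (20.8%) differed in their list odds at an adjusted p under 0.05, 1 towards GATA1 (4.17%) and 4 towards codanin-1 (16.7%). Of the 6 distal bins 2 differed, in opposite directions. The outermost bin had an odds ratio of codanin-1 to GATA1 of 0.186 (0.144 to 0.241; Fisher's exact test, adjusted over 24 bins, p = 4.2e-37). It was the bin of the arm that differed towards GATA1. The bin from 15 to 20 Mb had an odds ratio of 2.72 (1.51 to 5.32; Fisher's exact test, adjusted p = 0.0031), towards codanin-1. With the left-out block included the call was lost: the bin then held 198 codanin-1 and 63 GATA1 peaks, at an odds ratio of 0.992 (Fisher's exact test, adjusted p = 1.0), and among peaks that reached a −log10 q of 2 the call was also lost (adjusted p = 0.21). The outermost bin is itself part of the other bins' background: against 30 to 120 Mb alone, the bin from 15 to 20 Mb had an odds ratio of 1.46 (adjusted p = 0.50), and the bins that differed were those from 0 to 5 Mb (odds ratio 0.154, adjusted p = 2.7e-37) and from 5 to 10 Mb (0.445, adjusted p = 0.00044; Fisher's exact test for each). Over the outer and inner parts of the distal arm the same shift appeared, with 411 codanin-1 and 256 GATA1 peaks from 0 to 15 Mb and 367 and 72 from 15 to 30 Mb (odds ratio 0.315, 0.231 to 0.427; Fisher's exact test, adjusted p = 3.9e-15). Without the outermost 5 Mb, a choice made after seeing the data, the distal arm still differed from the rest of the arm. The odds ratio was 0.685 (0.523 to 0.897, Fisher's exact test, adjusted p = 0.015), and that of the outer over the inner part 0.608 (Fisher's exact test, adjusted p = 0.016). This remainder, with 621 codanin-1 and 154 GATA1 peaks, had 4.03 codanin-1 peaks per GATA1 peak. That was below the 5.89 of the rest of the arm but above the 2.78 of the whole lists. The remainder was not tested against the autosomes.

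**Figure D1:**
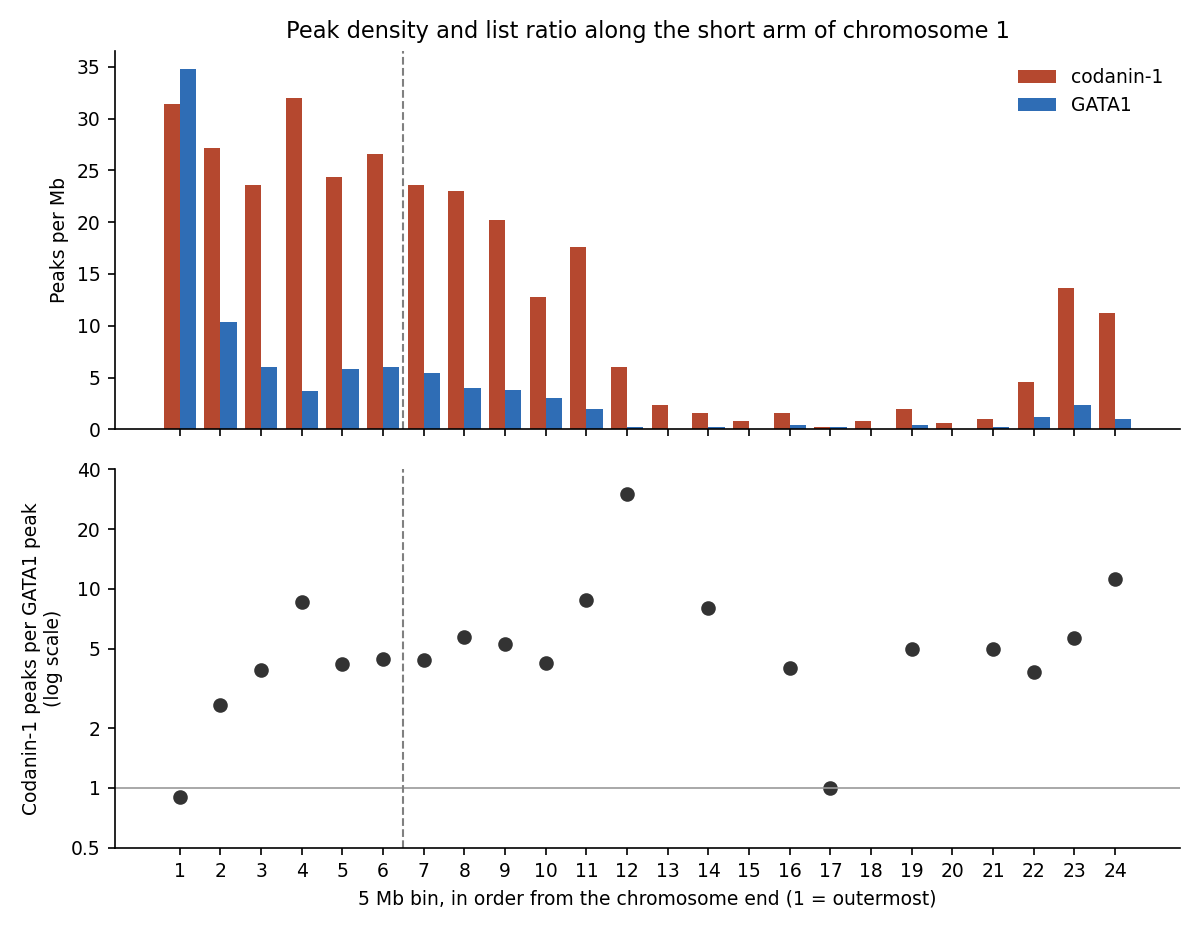
Peaks per Mb of each list (upper panel; codanin-1 left, GATA1 right in each pair) and codanin-1 peaks per GATA1 peak on a log axis (lower panel) in 24 bins of 5 Mb along the short arm of chromosome 1; the dashed line marks the inner limit of the distal arm, and bins with 0 GATA1 peaks have no point. GATA1 stood at 34.8 peaks per Mb in the outermost bin and between 3.71 and 10.4 in the other distal bins, whereas codanin-1 stayed between 23.6 and 32.0 per Mb in all 6.

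At a resolution of 1 Mb the distal arm fell into 29 windows that could be counted, the window from 17 Mb only over its inner part. Codanin-1 had peaks in every one of them, 14 to 46 peaks and a median of 25, against a median of 3 and a maximum of 35 in the 90 windows of the rest of the arm. GATA1 ranged from 0 to 80 peaks with a median of 6, against a median of 0 and a maximum of 11 in the rest of the arm. The rest of the arm had 18 windows without a codanin-1 peak and 49 without a GATA1 peak. Across the 29 distal windows the counts of the 2 lists had a Spearman's rho of 0.50 and a Pearson's r of 0.58, given as a description, since the windows share libraries and neighbouring sequence.

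The fullest codanin-1 windows of the distal arm were those from 2 to 3 Mb with 46 peaks, from 15 to 16 Mb with 42, from 9 to 10 Mb with 38, from 6 to 7 Mb with 37 and from 11 to 12 Mb with 35. The fullest GATA1 windows were those from 2 to 3 Mb with 80 peaks, from 1 to 2 Mb with 42, from 6 to 7 Mb with 33, from 3 to 4 Mb with 30 and from 0 to 1 Mb with 19. The windows from 2 and from 6 Mb stood on both lists. Codanin-1 windows as full as these did not always hold many GATA1 peaks: the window from 15 Mb had 42 codanin-1 peaks and 3 GATA1 peaks, and that from 9 Mb had 38 and 6, where 6 is the GATA1 median of the distal windows. GATA1 peaks outnumbered codanin-1 peaks in 2 windows, 42 to 34 from 1 to 2 Mb and 80 to 46 from 2 to 3 Mb, and equalled them at 30 each from 3 to 4 Mb. The window from 4 to 5 Mb, next to these, had 24 codanin-1 peaks and 3 GATA1 peaks.

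To set these windows against the genome, each 1 Mb window with at least 10 peaks was tested against the rest of the genome without the crowded windows, and 41 of 540 windows (7.59%) differed at an adjusted p under 0.05, 39 towards GATA1 (7.22%) and 2 towards codanin-1 (0.370%). In the distal arm 5 of 29 differed, all 5 towards GATA1. The window from 2 to 3 Mb had an odds ratio of 0.171 (adjusted p = 9.1e-20), that from 1 to 2 Mb 0.242 (9.1e-08), that from 3 to 4 Mb 0.299 (2.0e-04), that from 6 to 7 Mb 0.335 (2.7e-04) and that from 0 to 1 Mb 0.361 (0.024; Fisher's exact test for each, odds ratios with 0.5 added to each count). The call of the outermost window was lost when peaks within 1 kb were merged (adjusted p = 0.24, Fisher's exact test), among peaks with a fold of at least 4 (0.70), with the crowded windows and chromosomes Y and M kept in the background (0.086) and without the chains of GATA1 peaks described next (0.42). Among peaks that reached a −log10 q of 2, the windows from 3 and from 6 Mb missed the threshold (adjusted p = 0.23 and 0.58, Fisher's exact test). Those from 0 and from 1 Mb then had too few peaks to be tested, and that from 2 Mb kept its call. The codanin-1 window from 15 to 16 Mb, with an odds ratio of 3.66, missed the threshold (adjusted p = 0.076, Fisher's exact test) and passed it with the crowded windows and chromosomes Y and M kept in the background (0.017) or with windows of at least 20 peaks only (0.035).

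**Figure D2:**
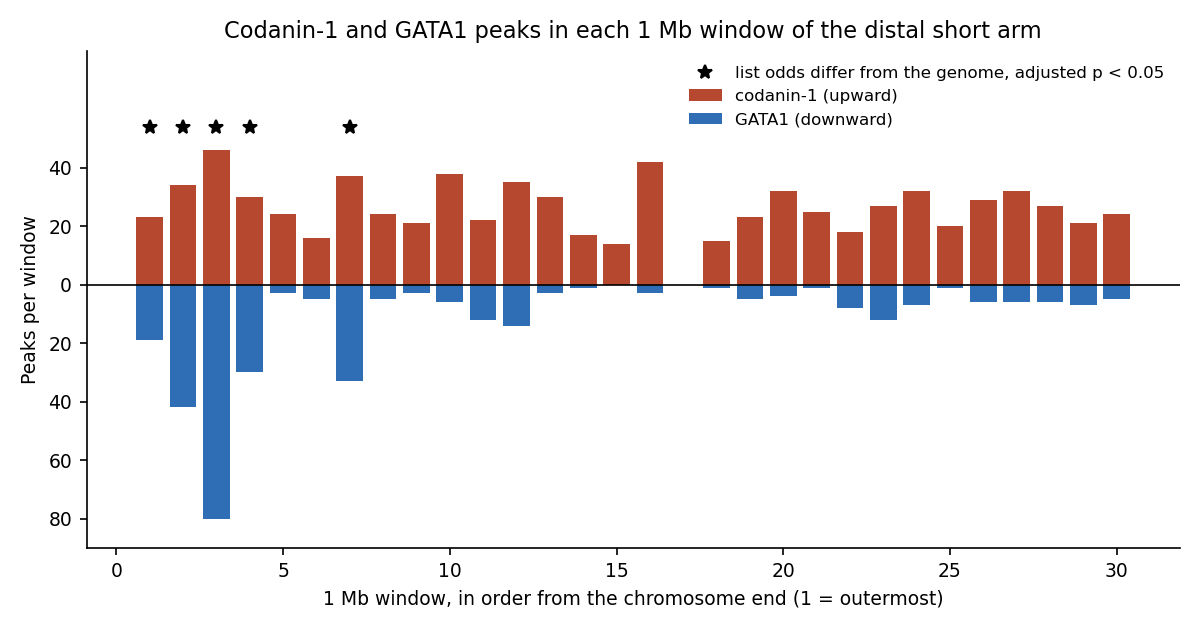
Peaks in each 1 Mb window of the distal arm, codanin-1 drawn upward and GATA1 downward; the window within the left-out block is empty, the next one is counted over its inner part only, and stars mark windows whose list odds differed from the rest of the genome. GATA1 was high in windows 1 to 4 and 7 and at most 14 elsewhere, whereas codanin-1 had between 14 and 46 peaks in every window counted.

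Part of the GATA1 crowding was a single chain of neighbouring peaks. With chains defined, after seeing the data, as peaks separated by at most 5 kb, 36 GATA1 peaks followed each other from 2583487 to 2634167 on chromosome 1, a span of 50.7 kb. It ranked sixth among the GATA1 chains of the genome by number of peaks. The GATA1 peaks covered 44.8% of the span, were 60 to 3598 bp wide with a median of 350.5 bp, and had fold enrichments from 3.63 to 6.83 with a median of 4.54. Their −log10 q had a median of 4.07 and reached 11.2, and of the 20 distal GATA1 peaks that reached a −log10 q of 5, 15 lay in the chain. The same span of 50.7 kb held 8 codanin-1 peaks. The distal arm had 27.3 codanin-1 peaks per Mb, so codanin-1 peaks were crowded in the span too. All 8 overlapped a GATA1 peak, and their fold enrichments were low, from 2.23 to 4.42 with a median of 2.98, against a median of 4.03 for all distal codanin-1 peaks. Beyond the chain neither list had a peak for 50177 bp, and the next was the first of a second GATA1 chain, of 8 peaks from 2684345 to 2693740, with no codanin-1 peak in its span. Whether the chain lies on repeated sequence or at an assembly gap was not tested, since no genome of the build was used.

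**Figure D3:**
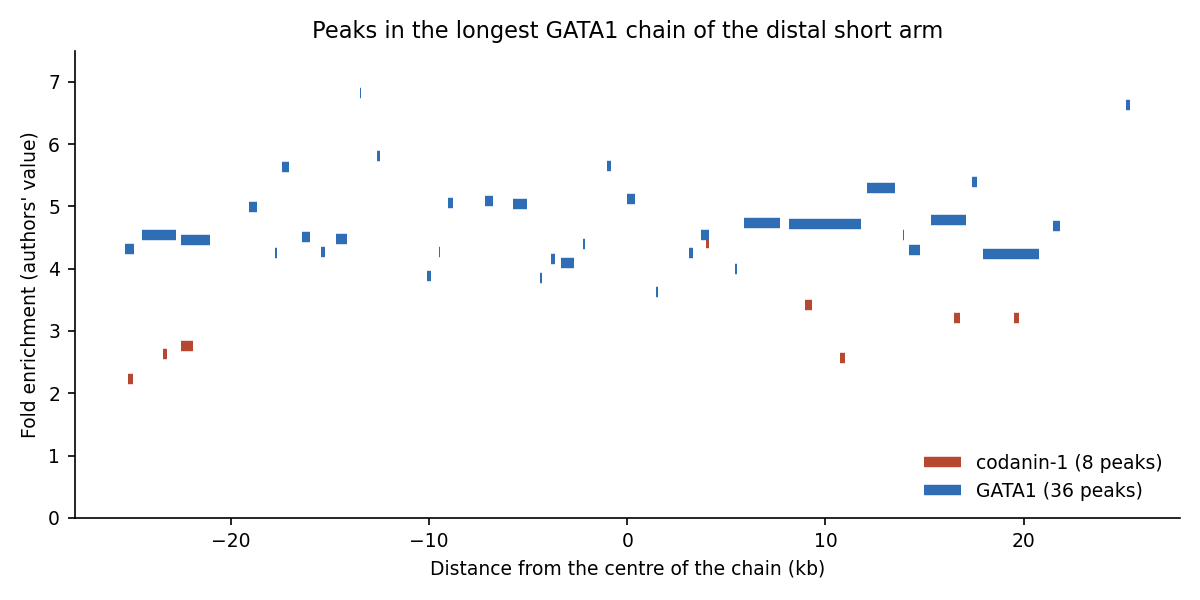
Peaks of both lists in the longest GATA1 chain of the distal arm, each drawn as a bar from its start to its end (kb from the centre of the chain) at its fold enrichment as deposited. The 36 GATA1 peaks lie between 3.63 and 6.83 and run to 3598 bp in width, and the 8 codanin-1 peaks lie between 2.23 and 4.42; the fold scales of the lists are not comparable.

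Another chain, of 7 GATA1 peaks, ran from 564795 to 570259, with fold enrichments of only 1.65 to 2.50 and a median −log10 q of 3.68, and no codanin-1 peak lay in it. It held all 5 distal GATA1 peaks with a fold below 2, while the rest of the arm had 0 such peaks. The 4 GATA1 peaks called on the mitochondrial genome had a like fold, from 1.79 to 1.92, and 0 codanin-1 peaks were called there. The whole GATA1 list had 53 peaks with a fold below 2, and most of them lay in neither place. A near-identical nuclear copy of mitochondrial DNA is known close to the end of the short arm of chromosome 1; whether this chain lies on it was not tested. The 3 chains held 51 of the 328 distal GATA1 peaks (15.5%). The rest of the arm had 0 chains of at least 5 GATA1 peaks, and the distal codanin-1 list had 1, of 5 peaks from 22484287 to 22492966. Without the stretches of the 3 chains the outermost 5 Mb held 149 codanin-1 and 123 GATA1 peaks, and its odds ratio was 0.250 (0.189 to 0.331; Fisher's exact test, adjusted p = 4.1e-21).

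The 5 most enriched peaks of each list did not overlap the other list. The fold enrichment is the authors' value for each peak. Where folds of both lists stand side by side, in text or plots, their sizes are not compared between lists, since the background of each list is not known. The highest codanin-1 fold of the distal arm was 6.48, at 2047011 to 2047128. It was followed by 6.08 at 27735741 to 27735860, 6.07 at 22486753 to 22486856, 6.03 at 14075732 to 14075861 and 5.79 at 4031975 to 4032075. These 5 peaks were narrow, at 101 to 130 bp, and none overlapped a GATA1 peak: the nearest GATA1 peak was 17716 bp from the first and 651213 bp from the fourth. The highest GATA1 fold was 7.35, at 12694719 to 12694781, a peak of 63 bp with a −log10 q of 10.3 and the nearest codanin-1 peak 12596 bp away. The next were 6.83 at 2595332 to 2595407 and 6.63 at 2633973 to 2634167, both in the long chain, then 5.85 at 4692664 to 4692737 and 5.81 at 2596229 to 2596360, a peak of the chain again. None of these 5 overlapped a codanin-1 peak. Overlap was rare among all distal peaks too, at 3.08% for codanin-1 and 7.01% for GATA1. Its absence from 5 peaks therefore does not set the most enriched peaks apart. No distal codanin-1 peak reached a −log10 q of 5, and the highest was 4.58, at the peak of highest fold.

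The widest peaks differed between the lists in size and spread. The 5 widest distal codanin-1 peaks measured 1037 to 1223 bp and were scattered, at 1630534 to 1631756, 4368352 to 4369486, 22924714 to 22925777, 6489927 to 6490985 and 14116388 to 14117424. Their folds were moderate, from 3.82 to 4.79. Of these 5, that at 6489927 to 6490985 overlapped a GATA1 peak and the others did not. The 5 widest distal GATA1 peaks measured 1724 to 3598 bp and all lay in the long chain, the widest at 2617012 to 2620609. All of these except the peak at 2614718 to 2616525 overlapped a codanin-1 peak. Among all distal GATA1 peaks the share was 7.01%, and wider peaks meet others more easily.

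Distal codanin-1 peaks were somewhat wider than those of the rest of the arm. Their median width was 239 bp (interquartile range 132 to 387) in the distal arm and 217 bp (123 to 341) in the rest of the arm. The minimum width of the list, 101 bp, was shared by 14.0% of distal codanin-1 peaks and 15.3% of those in the rest of the arm. A width above the upper quartile of the whole list, 366 bp, which 25.0% of all codanin-1 peaks exceeded, was found in 214 of 778 distal peaks (27.5%) and 157 of 718 in the rest of the arm (21.9%). The odds ratio was 1.36 (1.06 to 1.73; Fisher's exact test, adjusted p = 0.024). This call was lost among peaks that reached a −log10 q of 2 (adjusted p = 0.23), among those with a fold of at least 4 (adjusted p = 0.053) and without the outermost 5 Mb (adjusted p = 0.070, Fisher's exact test).

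For GATA1 the median width was 146 bp (interquartile range 86 to 222) in the distal arm and 132.5 bp (60 to 205) in the rest of the arm. The minimum width of the list, 60 bp, was shared by 15.5% of distal GATA1 peaks (95% exact interval 11.8 to 19.9) and 25.4% of those in the rest of the arm (18.0 to 34.1), a difference that was not tested. Widths above the upper quartile of the whole list, 256 bp, which 25.0% of all GATA1 peaks exceeded, were found in 55 of 328 distal peaks (16.8%) and 12 of 122 in the rest of the arm (9.84%), an odds ratio of 1.84 that did not pass the test (0.931 to 3.94; Fisher's exact test, adjusted p = 0.12). Without the 3 chains this odds ratio was 0.990. The fold enrichments differed little between the regions. The median codanin-1 fold was 4.03 in the distal arm and 4.01 in the rest of the arm, and the share above the upper quartile of the list (25.0% of all codanin-1 peaks) was 26.7% and 29.0% (odds ratio 0.895, 0.709 to 1.13; Fisher's exact test, adjusted p = 0.36). For GATA1 the medians were 4.31 in the distal arm and 4.26 in the rest of the arm, and the shares above the upper quartile (25.0% of all GATA1 peaks) 34.8% and 29.5% (odds ratio 1.27, 0.795 to 2.06; Fisher's exact test, adjusted p = 0.35). By bin, the median codanin-1 fold stayed between 3.99 and 4.07 and the median GATA1 fold between 4.23 and 4.36 across the distal arm. Of the 41 distal GATA1 peaks that reached a −log10 q of 3, however, 32 lay in the outermost 5 Mb, and 23 of them in the long chain.

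**Figure D4:**
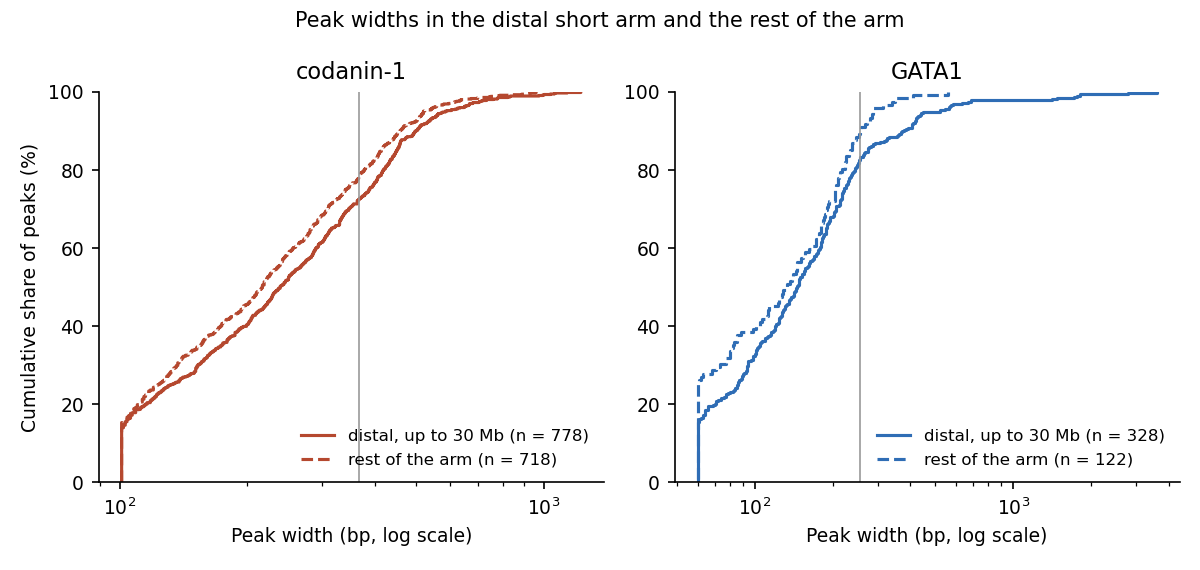
Cumulative share of peaks by width (bp, log axis) for codanin-1 (left) and GATA1 (right), in the distal arm (solid) and the rest of the arm (dashed); the grey line is the upper quartile of the whole list. The distal codanin-1 curve runs to the right of the other, with medians of 239 and 217 bp, and the distal GATA1 curve ends in a tail of peaks up to 3598 bp.

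Direct overlap between the lists was rare. Of the 778 distal codanin-1 peaks, 24 shared at least 1 bp with a GATA1 peak (3.08%, 95% exact interval 1.99 to 4.56), against 13 of 718 in the rest of the arm (1.81%, 0.967 to 3.08) and 6.60% of the whole list. The odds ratio was 1.73 (0.837 to 3.72) and did not pass the test (Fisher's exact test, adjusted p = 0.19). Of the distal GATA1 peaks 23 of 328 overlapped a codanin-1 peak (7.01%, 4.50 to 10.3), against 13 of 122 in the rest of the arm (10.7%, 5.80 to 17.5) and 20.2% of the whole list, an odds ratio of 0.633 (0.295 to 1.41; Fisher's exact test, adjusted p = 0.30). With the first 3 Mb left out the codanin-1 odds ratio was 0.982. Against the autosomes outside the distal arm and the crowded windows the GATA1 odds ratio was 0.454 (0.281 to 0.703; adjusted p = 2.7e-04, Fisher's exact test). With peaks within 1 kb of each other counted in place of overlaps, the distal GATA1 share was below that of the rest of the arm as well, at 12.5% against 22.95% (odds ratio 0.480, 0.273 to 0.854; Fisher's exact test, adjusted p = 0.016).

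The outermost 5 Mb held a share of the overlaps close to its share of the GATA1 peaks, but most of those overlaps lay in the long chain. It held 13 of the 24 overlapping codanin-1 peaks, 8 of them in the long GATA1 chain. Of the 23 overlapping GATA1 peaks it held 12, of which 7 were in the chain, beside 53.0% of all distal GATA1 peaks. The overlapping site of highest codanin-1 fold was a codanin-1 peak at 6489927 to 6490985, with a fold of 4.79, which met the edge of a GATA1 peak at 6490952 to 6491170 with a fold of 4.73. It was followed by codanin-1 peaks at 2454229 to 2454429 (fold 4.60, GATA1 partner 4.42), 2612783 to 2612962 (4.42, partner 4.54, in the chain), 23718836 to 23719118 (4.27, partner 5.11) and 136453 to 137120 (4.25, partner 4.75). In the last of these the GATA1 peak, 109 bp wide, lay wholly within the codanin-1 peak of 668 bp. Overlapping distal codanin-1 peaks had a median width of 330 bp against 235.5 bp for the others, a comparison partly set by the overlap rule, since wider peaks meet others more easily. The 16 overlapping codanin-1 peaks outside the long chain had folds from 3.49 to 4.79 with a median of 4.03, the same as the median of all distal codanin-1 peaks to 3 digits.

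**Figure D5:**
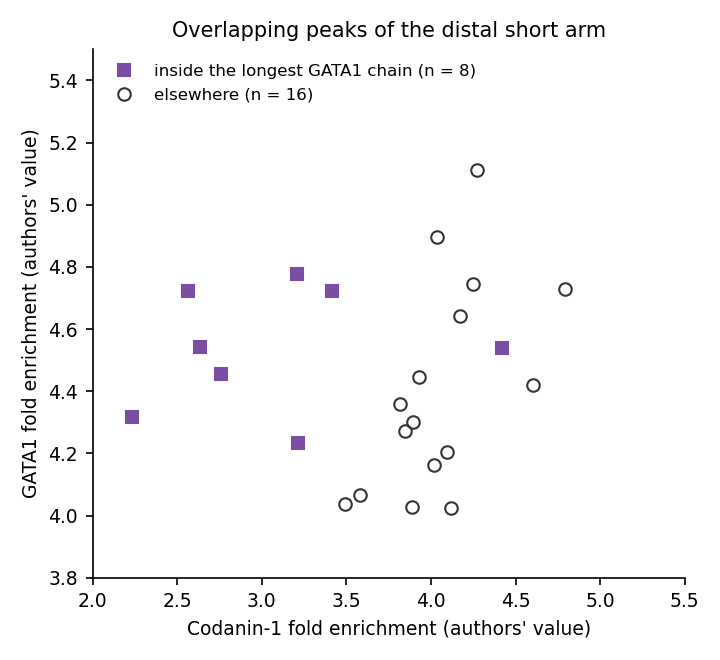
Fold enrichment of each of the 24 overlapping codanin-1 peaks of the distal arm (x axis) against that of its GATA1 partner (y axis), both as deposited and on scales not comparable between lists; each overlapped 1 GATA1 peak. The 8 sites in the long GATA1 chain (squares) have a median codanin-1 fold of 2.98, and the 16 elsewhere (circles) 4.03.

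Median distances to the nearest peak of the other list were shorter in the distal arm, but GATA1 peaks very close to a codanin-1 peak were not more frequent there. Both lists were also denser there on average, 3.42 times for codanin-1 and 8.49 times for GATA1, and the distances were not set against density. The nearest GATA1 peak was a median of 37.6 kb from a distal codanin-1 peak and 98.2 kb from one in the rest of the arm. The nearest codanin-1 peak was a median of 7.68 kb from a distal GATA1 peak and 9.05 kb from one in the rest of the arm, whereas the lower quartile of that distance was longer in the distal arm, at 2805.5 bp against 1335.5 bp in the rest of the arm. Within 10 kb of a GATA1 peak lay 175 of 778 distal codanin-1 peaks (22.5%, 19.6 to 25.6) and 89 of 718 in the rest of the arm (12.4%, 10.1 to 15). Within 10 kb of a codanin-1 peak lay 56.7% of distal GATA1 peaks (51.2 to 62.1) and 53.3% of those in the rest of the arm (44.0 to 62.4). At the inner limit of the distal arm, the last codanin-1 peak inside was at 29843043 to 29843248 (4.02-fold) and the first outside at 30107633 to 30107780 (4.44-fold). The last GATA1 peak inside was at 29695992 to 29696089 (4.04-fold) and the first outside at 30196357 to 30196602 (4.01-fold). The left-out block held 86 codanin-1 and 50 GATA1 peaks. On its outer side the last codanin-1 peak kept was at 15969587 to 15969687 (4.14-fold) and the first left out at 16016218 to 16016328 (3.82-fold), and for GATA1 they were at 15737335 to 15737394 (4.47-fold) and 16057296 to 16057361 (4.42-fold). On its inner side the first codanin-1 peak kept was at 17526313 to 17526481 (4.72-fold) and the last left out at 17440463 to 17440718 (4.23-fold), and for GATA1 they were at 17730174 to 17730399 (4.24-fold) and 17448220 to 17448326 (4.15-fold).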

How the data were processed

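The deposited files are 2 peak lists in broad peak layout, 9 columns without a header, one per antibody. BWA, MACS2 and the build hg19 are named, with no roles, in the submitters' processing notes. Not given in the sources used here are versions, the background library, the calling threshold and filters. The fold enrichment of each peak, a ratio over the caller's background, and its −log10 p and −log10 q (p-value and q-value on a −log10 scale) are the authors' deposited values. The deposited score column was not used. The files hold no read counts, so depth is unknown.

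Peaks were placed by midpoint, counted in bins of 5 Mb and windows of 1 Mb, and compared by Fisher's exact test on peak counts or, for densities, an exact binomial test, with Benjamini-Hochberg adjustment and exact 95% intervals that cover counting error only. Crowded windows are the 10 that held, in both lists, 10 or more times the mean per window. They, the left-out block and chromosomes Y and M stayed out of the window test. The window from 2 to 3 Mb, with 46 codanin-1 peaks, lay just under the codanin-1 limit of 46.2 and was kept. Shares of wide or highly enriched peaks used the upper quartile of the whole list. Positions named are the 5 fullest windows, the 5 widest peaks and the 5 of highest fold per list, and the 5 overlapping peaks of highest codanin-1 fold, plus chains and peaks at the limits singled out after their values were seen. The region and comparisons were chosen with earlier results of these data known. The window test was tested on simulated data: of 30 windows planted with an odds ratio of 4, 28 were called, and 0 of the others. The planted windows all had at least 30 peaks, and list labels were drawn independently for each peak. Power in windows of fewer peaks, and false calls raised by chains of neighbouring peaks, were therefore not measured. The supplied gene table and promoter sequences are of GRCh38 and were not used. Alternatives tried were thresholds on q and fold, merging, position, limits of the region, the set compared with, overlap rules and quartiles. Analyses used Python 3.11.15, numpy 2.4.6, scipy 1.17.1, pandas 2.3.3, statsmodels 0.14.6 and matplotlib 3.10.9.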

Additional observations from a re-analysis of the deposited data

How the results depend on the processing

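The higher density of both lists in the distal arm and the lower odds of codanin-1 to GATA1 kept direction and call under all alternatives tried: over 12 each, the codanin-1 density ratio ran from 3.30 to 6.42, the GATA1 ratio from 4.83 to 13.5 and the odds ratio from 0.249 (−log10 q from 2 up) to 0.694 (autosomes), and over 10 the odds of the outer over the inner part from 0.131 to 0.608. Odds ratios for width, fold and overlap were less stable, and the cause was not tested. Wide codanin-1 peaks lost the call at 1.60 (−log10 q from 2 up), 1.5 (folds from 4 up) and 1.31 (without the first 5 Mb). Wide GATA1 peaks reached it at 10.4 (−log10 q from 2 up) and 2.08 (block included), and turned to 0.743 without the first 3 Mb, 0.846 without the first 5 Mb, 0.801 against autosomes, 0.982 without the fullest window and 0.990 without the chains. Highly enriched codanin-1 peaks turned to 2.76 (−log10 q from 2 up), 1.02 (autosomes) and 1.17 (median fold). For GATA1 they turned to 0.521 (−log10 q from 2 up), 0.995 and 0.956 (without the first 3 or 5 Mb) and 0.940 (without the fullest window), and passed at 1.37 (autosomes). Overlap of codanin-1 passed at 2.08 (block included) and turned to 0.982 and 0.978 (without the first 3 or 5 Mb) and 0.757 (autosomes). Overlap of GATA1 passed at 0.454 (autosomes) and 0.480 (within 1 kb) and turned to 1.5 when 0.5 of both lengths had to overlap. The 5 differing bins of 5 Mb became 1 (−log10 q from 2 up), 3 (merged), 2 (against 30 to 120 Mb) and 3 (without the chains). The 5 differing windows became 1 of 5 still tested at a −log10 q from 2 up. Leaving out the first 5 Mb and the chains were chosen after seeing the data. No paired analysis was possible because there is 1 library per antibody, and no replicate could be left out. Depth is unknown, so sites missed by the caller cannot be counted.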

Other observations

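Among the short-arm ends of 18 chromosomes (acrocentric chromosomes left out, a comparison chosen after seeing the data), the outermost 5 Mb of chromosome 1 held the most peaks of both lists, 157 for codanin-1 and 174 for GATA1. The next was chromosome 5, with 113 codanin-1 and 68 GATA1 peaks, or 1.66 codanin-1 peaks per GATA1 peak, against 0.902 on chromosome 1. Chromosomes 16 and 19 had 1.53 and 1.79. GATA1 equalled or exceeded codanin-1 at 2 of the 18 ends, those of chromosome 1 and of chromosome X, where the lists had 0 codanin-1 and 5 GATA1 peaks. These counts are given with no test.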
